A study of Mus musculus with 2 samples.

Results

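The miR-181 family of the mouse comprises 6 hairpin genes that lie in pairs at 3 loci. They are Mir181c and Mir181d on chromosome 8, Mir181a-2 and Mir181b-2 on chromosome 2, and Mir181a-1 and Mir181b-1 on chromosome 1. The members were taken by gene identifier, matched without its version to GENCODE M21, and all 6 were found among the 1973 genes listed. The study profiled microRNAs of the hindbrain at embryonic day 16.5 in the mouse strain B6NCrl, with male and female embryos mixed and no treatment named in the labels. It holds 1 group of 2 biological replicates, each made from its own pool of embryos. Replicate 2 came from 37 embryos, and the number for replicate 1 is not given in the sources used here. Total RNA from whole pooled tissue was used, and a size limit of 30 nucleotides is given for both libraries. Because whole tissue was pooled, fewer cells of a type and less RNA per cell cannot be told apart in these values.

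A microRNA is cut from a hairpin transcript, and 1 arm of the hairpin usually guides the silencing complex to messenger RNAs that match its seed, bases 2 to 8 from its 5′ end. The miR-181 family is known from brain and from the thymus. In mouse thymocytes miR-181a raises the sensitivity of T cells to antigen, and in the medaka retina miR-181a and miR-181b take part in axon growth. The 5p arm is regarded as the main product of each hairpin.

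The family makes 4 distinct 5p sequences from its 6 hairpins, all with the seed ACAUUCA. They are shown because they decide which reads can be tied to 1 locus. Sequences are those of RefSeq for GRCm38.p6, 5′ to 3′, with the seed in capitals.
miR-181c-5p: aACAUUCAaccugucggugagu
miR-181d-5p: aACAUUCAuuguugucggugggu
miR-181a-5p: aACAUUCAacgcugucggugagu
miR-181b-5p: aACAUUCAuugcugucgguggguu

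In a search of 1738 mature entries, the seed was held by these 6 genes and by no other. The target match of the seed reads UGAAUGU. With positions counted from 1 at the 5′ end, miR-181b-5p differs from miR-181a-5p by A9U, C10U and A21G over 23 bases, and miR-181d-5p differs from miR-181b-5p by C12U. The miR-181c-5p sequence is miR-181a-5p without its base 11. The family thus holds an a/c kind of 5p arm (Mir181c, Mir181a-2, Mir181a-1) and a b/d kind (Mir181d, Mir181b-2, Mir181b-1), and each locus carries 1 hairpin of each kind.

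The 3p arms separate the loci better, since each of the 6 sequences below was found in 1 hairpin only. The seed is again in capitals.
miR-181c-3p: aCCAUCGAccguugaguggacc
miR-181d-3p: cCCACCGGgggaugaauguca
miR-181a-2-3p: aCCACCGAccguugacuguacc
miR-181b-2-3p: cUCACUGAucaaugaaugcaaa
miR-181a-1-3p: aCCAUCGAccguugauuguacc
miR-181b-1-3p: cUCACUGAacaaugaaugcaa

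The 3p arm of Mir181a-1 differs from that of Mir181a-2 by C5U and C16U, written from the Mir181a-2 base to the Mir181a-1 base. The arm of Mir181b-1 differs from that of Mir181b-2 by U9A over 21 bases. Mir181a-1 and Mir181c have the same 3p seed, and so do Mir181b-1 and Mir181b-2.

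The hairpins of the chromosome 2 and chromosome 1 loci are shown with their mature arms in capitals, because they hold the 5p sequences that occur at 2 places.
Mir181a-2: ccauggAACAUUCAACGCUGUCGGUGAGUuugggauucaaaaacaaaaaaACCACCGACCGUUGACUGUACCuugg
Mir181a-1: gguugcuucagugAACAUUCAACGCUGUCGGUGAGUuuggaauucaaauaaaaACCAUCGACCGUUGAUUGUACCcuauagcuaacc
Mir181b-2: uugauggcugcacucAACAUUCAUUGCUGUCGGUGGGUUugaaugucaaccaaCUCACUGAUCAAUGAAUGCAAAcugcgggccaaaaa
Mir181b-1: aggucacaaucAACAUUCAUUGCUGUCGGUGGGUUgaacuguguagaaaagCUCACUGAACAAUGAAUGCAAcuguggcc

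The Mir181a hairpins share an unbroken run of 28 bases, which holds the 5p arm with 1 base before it and 4 after it. The Mir181b hairpins share a run of 26 bases, with 2 bases before the 5p arm and 0 after it. Of the windows of 22 bases along each hairpin, 7 of 55 in Mir181a-2, 7 of 66 in Mir181a-1, 5 of 68 in Mir181b-2 and 5 of 59 in Mir181b-1 occur in another RefSeq mouse hairpin, against 0 of 51 in Mir181d. The deposited tables list reads that map to several places as a single total for the library. A miR-181a or miR-181b 5p read that lies within the shared run fits both loci, so the counts of these 4 hairpins are uncertain as measures of the microRNA they make. Multimapping reads came to 33.5 for every count on the family in replicate 1 and 34.6 in replicate 2, and how many of them are miR-181 reads cannot be read from the tables. The tables also do not separate the 5p from the 3p arm.

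The 3 loci differ in their surroundings in GENCODE M21 (GRCm38, mm10). Mir181c (84178873 to 84178961) and Mir181d (84178716 to 84178787) lie on the minus strand of chromosome 8, 85 bases apart, in an intron of Nanos3 on the same strand, a gene of germ cell development. Mir181a-2 (38852735 to 38852810) and Mir181b-2 (38853830 to 38853918) lie on the plus strand of chromosome 2, 1019 bases apart, opposite an intron of the nuclear receptor gene Nr6a1. Mir181b-2 also lies opposite an exon of Gm44144. Mir181a-1 (137966455 to 137966541) and Mir181b-1 (137966639 to 137966718) lie on the plus strand of chromosome 1, 97 bases apart, in an intron of the noncoding gene Gm4258. Mir181a-1 and Mir181b-1 also lie opposite an intron of the long noncoding gene Gm26936. Mir181b-1 lies wholly in an exon of the long noncoding gene A430106G13Rik, which overlaps 11 bases of Mir181a-1. The identifier of Mir181c has version 1 in the counts and version 2 in GENCODE M21, so the interval that was counted may differ from the one given.

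The libraries held 5097205 sense counts on listed genes in replicate 1 and 4460836 in replicate 2, where sense means the strand column with 97.6% of the reads on listed genes. Among 1973 genes, 385 were detected, which means at least 10 counts in both libraries, and all 6 family members were among them. The Hox-embedded hindbrain microRNAs Mir10a and Mir10b were both detected and summed to 100993 and 85868 counts per 1000000 sense counts (CPM) in replicates 1 and 2. Of 8 counted hairpins of the neuronal list 5 were detected, led by Mir137 and Mir128-1, with sums of 13391 and 12047 CPM. Mir128-2 and Mir9-3 followed at mean levels of 1393 and 476 CPM, and the rest of that list was near the floor. Mir124a-1 had 22 and 13 counts in replicates 1 and 2, and Mir124a-2, Mir124a-3 and Mir9-2 were not detected. Reads that fit several places are in no hairpin's count, so low counts of such numbered copies need not mean little microRNA. White blood cells are also known to use miR-181. The leukocyte list summed to 473 and 433 CPM with 4 of 5 counted hairpins detected, led by Mir223 and Mir155, and Mir142b was at 0. Mir142, also on that list, was not found by name among the listed genes, so its level is not known here. The erythroid list summed to 216 and 206 CPM and was led by Mir451a and Mir144, and the endothelial and smooth muscle list, led by Mir126a and Mir143, summed to 34724 and 36467 CPM. The part of these cells in the miR-181 counts was not tested.

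Together the 6 hairpins held 113430 counts in replicate 1 and 98517 in replicate 2. These were 2.23% of all sense counts (exact binomial 95% interval 2.21% to 2.24%) and 2.21% (2.19% to 2.22%), a mean of 2.22% ± 0.0119 (SD, n = 2). With multimapping reads in the total, and none of them added to the family, the share was 1.26%. The family total was therefore close in the libraries, while its members spanned more than 3 orders of magnitude. The intervals here and below cover counting error only, because no molecular identifiers were counted and PCR copies cannot be told from separate molecules. None of the members had a count on the opposite strand in either library.

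Mir181c, which makes a 5p arm found at no other hairpin, led the family. It had 61972 and 56555 counts in replicates 1 and 2, or 12158 and 12678 CPM (12418 ± 368, SD, n = 2), and stood at place 15 of all genes by mean CPM. Its counting intervals were 12063 to 12254 CPM in replicate 1 and 12574 to 12782 CPM in replicate 2. The libraries are compared over all genes below. Mir181c alone supplied 56.0% ± 1.96 of the family's counts (SD, n = 2).

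Mir181d, its neighbour, also has a 5p arm of its own and had 27127 and 18583 counts, or 5322 and 4166 CPM (4744 ± 818, SD, n = 2), at place 39. Mir181a-1 had 19605 and 20242 counts, or 3846 and 4538 CPM (4192 ± 489, SD, n = 2), at place 45. Mir181d was above Mir181a-1 in replicate 1 and below it in replicate 2. These hairpins supplied 21.4% ± 3.57 and 18.9% ± 2.31 of the family's counts (SD, n = 2).

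The remaining members were lower by steps. Mir181b-2 had 3820 and 2392 counts, or 749 and 536 CPM (643 ± 151, SD, n = 2), at place 112. Mir181a-2 had 870 and 721 counts, or 171 and 162 CPM (166 ± 6.40, SD, n = 2), at place 184. Mir181b-1 had 36 and 24 counts, or 7.06 and 5.38 CPM (6.22 ± 1.19, SD, n = 2), at place 331. Even the lowest member exceeded the level that 0 counts would still allow, 0.589 CPM for replicate 1 and 0.673 CPM for replicate 2.

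**Figure D1:**
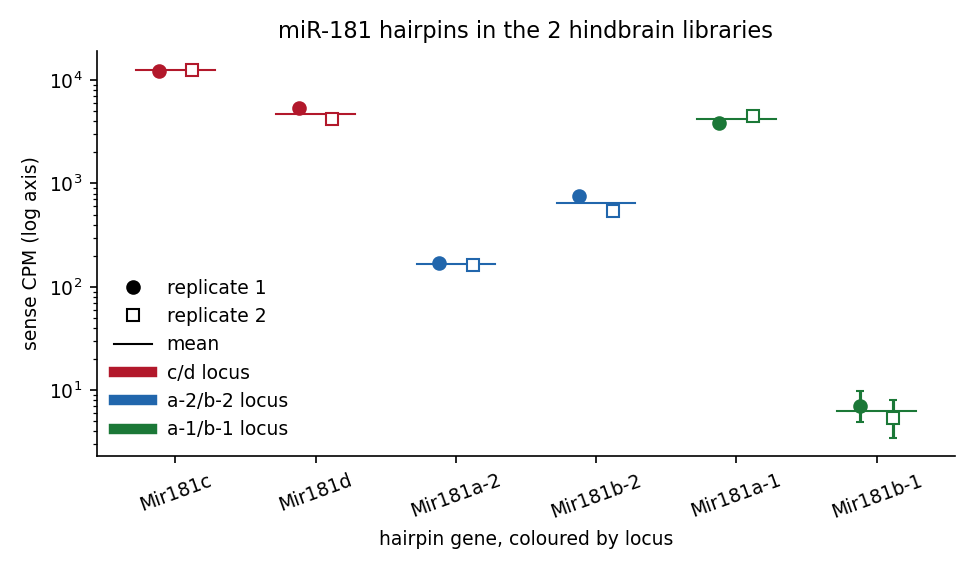
Sense CPM (log axis) of the 6 miR-181 hairpins in replicate 1 (filled circles) and replicate 2 (open squares), with exact binomial 95% intervals and the mean of the 2 libraries as a line. Mir181c is highest at 12158 and 12678 CPM, and Mir181b-1 is lowest at 7.06 and 5.38 CPM.

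Each pair of neighbours in this order was set against the spread between the libraries. A log2 ratio was called different when the libraries gave it 1 sign and the size of its mean was over 2 SD. No p is given, because the smallest that sign flips of 2 libraries allow in an exact test is 0.5. The order was set by the same counts, so the limit is a description of 2 libraries and not a test. Mir181c over Mir181d gave 1.40 ± 0.29, Mir181a-1 over Mir181b-2 2.72 ± 0.51, Mir181b-2 over Mir181a-2 1.93 ± 0.29 and Mir181a-2 over Mir181b-1 4.75 ± 0.22 (mean log2 ratio, SD, n = 2), all past that limit. Mir181d over Mir181a-1 gave 0.47 in replicate 1 and -0.12 in replicate 2, so these hairpins did not differ beyond the spread.

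**Figure D2:**
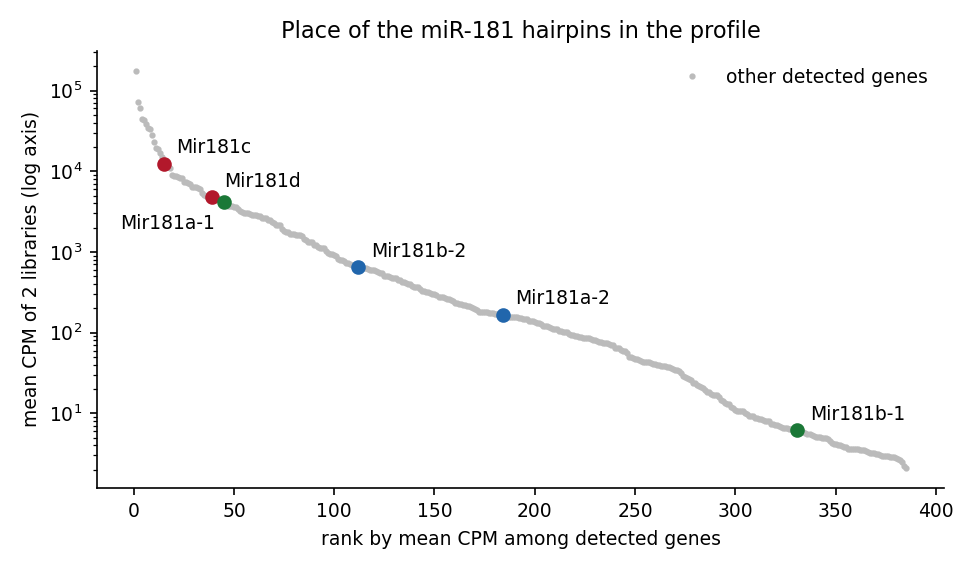
Mean CPM of the 2 libraries (log axis) for the 385 detected genes in order of level, with the miR-181 hairpins coloured by locus. The members lie at places 15, 39, 45, 112, 184 and 331, so the family is spread over most of the detected range.

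For each member the genes most like it in level were those at the smallest distance in log2(CPM + 1) over the 2 libraries, among the 385 detected genes. Mir181c lay nearest to Mir127 and Mir369, Mir181d to Mir20a and Mir342, and Mir181a-1 to Mir1298 and Mir598. Mir181b-2 lay nearest to Mir15b and Mir28a, Mir181a-2 to Mir331 and Mir29c, and Mir181b-1 to Mir3081 and Mir3062. The distances ran from 0.03 for Mir331 to 0.28 for Mir369 on the log2 scale. No gene was near to more than 1 member by this measure.

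The chromosome 8 locus held most of the counted family. Mir181c and Mir181d together had 89099 and 75138 counts in replicates 1 and 2, or 77.4% ± 1.61 of the family's counts (SD, n = 2). The chromosome 2 locus had 4690 and 3113 counts, or 3.65% ± 0.689. The chromosome 1 locus had 19641 and 20266 counts, or 18.9% ± 2.30, nearly all from Mir181a-1.

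The order of the loci was the same in both libraries. The chromosome 8 locus exceeded the chromosome 1 locus by a log2 ratio of 2.18 in replicate 1 and 1.89 in replicate 2 (2.04 ± 0.21, SD, n = 2), a 4.10-fold mean ratio. It exceeded the chromosome 2 locus by 4.25 and 4.59 (4.42 ± 0.24), or 21.4-fold. The chromosome 2 locus lay below the chromosome 1 locus, at -2.07 and -2.70 (-2.38 ± 0.45). All 3 ratios were past the limit of 2 SD. They describe reads that could be placed at 1 locus. The 5p reads of the chromosome 2 and chromosome 1 hairpins fit both of those loci and those of the chromosome 8 hairpins do not, so the ratios over the chromosome 8 locus can be too high by an amount these tables cannot give.

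Within the loci the balance of the hairpins differed. Mir181c, the a/c kind at chromosome 8, was higher than Mir181d, the b/d kind, by a log2 ratio of 1.19 and 1.61 in replicates 1 and 2, a 2.64-fold mean ratio. On chromosome 2 the direction was the opposite, and Mir181a-2 over Mir181b-2 gave -2.13 and -1.73 (-1.93 ± 0.29, SD, n = 2). On chromosome 1 Mir181a-1 over Mir181b-1 gave 9.09 and 9.72 (9.40 ± 0.45, SD, n = 2), a 678-fold mean ratio between hairpins 97 bases apart. All were past the limit of 2 SD. Divided by annotated hairpin length, the mean log2 ratios were 1.09 on chromosome 8, -1.70 on chromosome 2 and 9.28 on chromosome 1. A small RNA read covers 1 arm of about the same length whatever the hairpin's length, which was 72 to 89 bases here. The other values are therefore given per hairpin and not per base, over the reads of either arm that could be placed there. Reads of the 5p arms shared by the chromosome 2 and chromosome 1 loci fit both, and those of Mir181c and Mir181d do not. The ratios of the loci may therefore compare different mixes of arms, which was not tested.

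**Figure D3:**
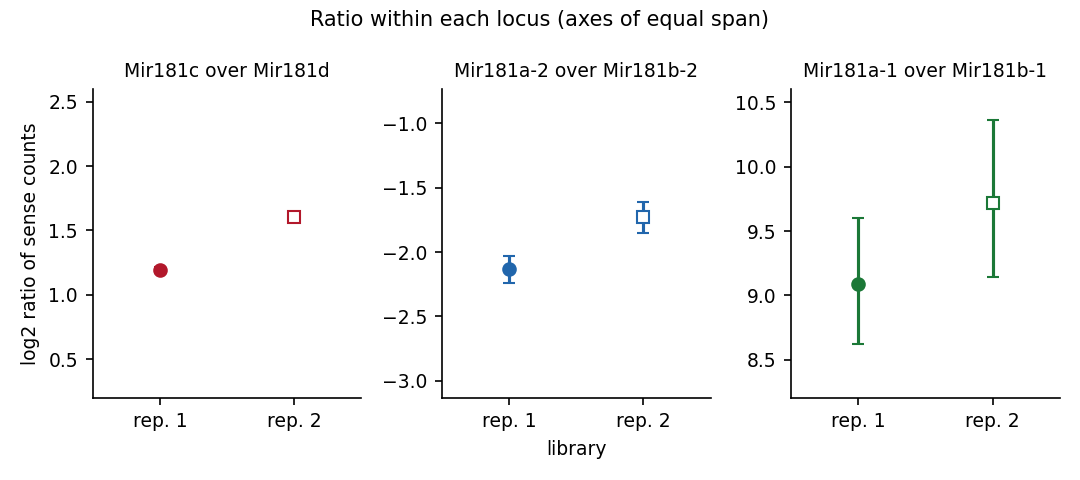
Log2 ratio of the a/c kind of hairpin over the b/d kind at each locus in replicate 1 (filled circles) and replicate 2 (open squares), with exact 95% binomial intervals for counting error; the 3 axes span the same range. The ratio is lower in replicate 1 at all 3 loci, by -0.41, -0.40 and -0.63, and the last interval of this difference includes 0.

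The copies with the same 5p sequence were also far apart, in opposite directions. Mir181a-2 over Mir181a-1 gave a log2 ratio of -4.49 and -4.81 in replicates 1 and 2 (-4.65 ± 0.22, SD, n = 2), a 25.2-fold mean difference. Mir181b-2 over Mir181b-1 gave 6.73 and 6.64 (6.68 ± 0.06, SD, n = 2), a 103-fold mean difference. Mir181b-1 rests on 60 counts in all, and its exact interval for this ratio ran from 6.26 to 7.25 in replicate 1 and from 6.06 to 7.28 in replicate 2. By the reads that could be placed, the chromosome 1 locus thus held the higher Mir181a copy and the chromosome 2 locus the higher Mir181b copy. Reads within the runs shared by the copies fit both. These ratios therefore do not show how much of the shared 5p microRNA each copy makes.

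A list of 16 other pairs of hairpins with a shared mature sequence, made by hand and not complete, gives a scale for these differences. Of these, 15 were in the tables and 11 had both copies detected, with a log2 ratio of the higher over the lower copy from 0.41 to 4.50 and a median of 1.38. Among these 11, the most unequal were Mir92-1 over Mir92-2 at 4.50 and Mir219a-2 over Mir219a-1 at 3.43, and the least unequal were Mir125b-2 over Mir125b-1 at 0.41 and Mir7-1 over Mir7-2 at 0.46. The minimum of 10 counts takes out pairs whose lower copy is near 0, which can be very unequal. In the 4 pairs it took out, Mir194-2 had 437 and 284 counts against 7 and 9 for Mir194-1, a log2 ratio of summed counts of 5.49 (exact 95% interval 4.78 to 6.31), which is above the 4.65 of the Mir181a pair. Mir199a-2 had 42 and 23 counts against 0 and 1 for Mir199a-1 (6.02, exact 95% interval 3.49 to 11.3). Mir19b-1 over Mir19b-2 gave 1.70 and Mir29b-2 over Mir29b-1 gave 0.40 on the same measure. The miR-181 pairs, at 4.65 and 6.68, were thus at the unequal end of this list together with Mir194, Mir199a and Mir92, and no test was made of this. These pairs also lose reads that fit both copies.

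Neighbouring hairpins were often unequal in these libraries. Among 88 pairs of detected hairpins next to each other on the same strand and at most 2000 bases apart, the median log2 ratio of the higher over the lower was 2.49, and the range was 0.00 to 10.4. Mir181a-1 over Mir181b-1 was the third most unequal of the 88, after Mir449a over Mir449b at 10.4 and Mir20a over Mir19b-1 at 9.70. Here too the minimum of 10 counts takes out pairs whose lower hairpin is near 0, which can be very unequal. Mir181b-2 over Mir181a-2 and Mir181c over Mir181d stood at places 58 and 65, below the median. Some hairpins in these pairs, such as Mir181b-1 and Mir19b-1, share a mature sequence with a copy elsewhere and lose the reads that fit both places. The part of such lost reads in these ratios was not tested.

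**Figure D4:**
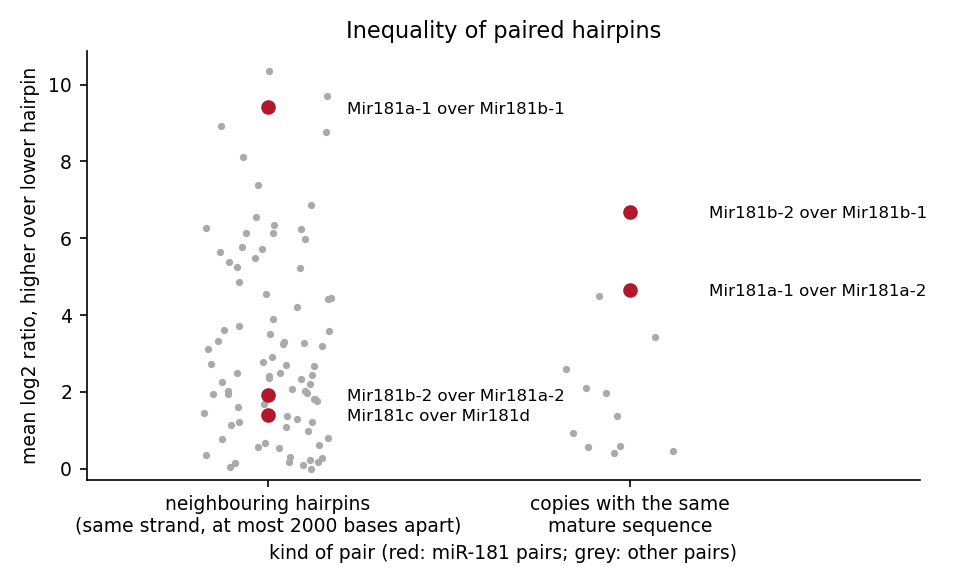
Mean log2 ratio of the higher over the lower hairpin for 88 neighbouring pairs (left) and 13 pairs of copies with the same mature sequence, both detected (right), with miR-181 pairs in red and others in grey. Mir181a-1 over Mir181b-1 stands at 9.40 among the neighbours, and the miR-181 copies stand at 6.68 and 4.65.

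The 2 libraries were compared with an exact two-sided binomial test on TMM-scaled totals over the 401 genes whose counts summed to 20 or more, and p-values were adjusted by the method of Benjamini and Hochberg. The test measures counting noise and compares these libraries, not conditions. It called 46.4% of all genes tested, 24.4% higher and 21.9% lower in replicate 1, and 4 of the 6 members, 2 in each direction. The median of the members' absolute log2 ratios was 0.30, against 0.18 over all genes tested.

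Mir181b-2 was higher in replicate 1 by a log2 ratio of 0.42 (95% interval 0.34 to 0.49, adjusted exact binomial p = 2.8e-28), and Mir181d by 0.29 (0.26 to 0.32, adjusted exact binomial p = 1.04e-97). Mir181a-1 was lower in replicate 1, at -0.30 (-0.33 to -0.27, adjusted exact binomial p = 1.97e-96), and so was Mir181c, at -0.13 (-0.14 to -0.11, adjusted exact binomial p = 2.95e-49). Mir181b-1 gave 0.33 with an interval from -0.46 to 1.14, too wide at this depth to show a difference of that size. Mir181a-2 gave 0.01 (-0.13 to 0.16). All 6 estimates were under 1.5-fold, and edgeR's exact test called 0 of the 6 members when the biological coefficient of variation (BCV) was set to 0.1, where 1.75% of all genes were called, and 0 at the BCV estimated from the libraries, where 0.748% were called. At an unadjusted p under 0.05 these settings gave 1 member (Mir181b-2) and 0. The BCV estimate treated the 2 libraries as 1 group. The differences under test thus also set its noise level, so the few calls at that setting decide nothing. The skeletal muscle list, led by Mir206 and Mir133b, also differed between the libraries, at 375 CPM in replicate 1 and 24.9 CPM in replicate 2. Mir1a-1, Mir133a-1 and Mir133a-2 were at 0. Reads that fit several places are in no hairpin's count, so a 0 for a numbered copy need not mean absence. The part of the skeletal muscle list in the differences of the members was not tested.

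Ordered by library ratio, the hairpins fell apart by the kind of 5p arm and not by locus. The b/d hairpins Mir181d, Mir181b-2 and Mir181b-1 had log2 ratios of 0.29, 0.42 and 0.33, all above those of the a/c hairpins Mir181c, Mir181a-2 and Mir181a-1, at -0.13, 0.01 and -0.30. The ratio of a/c over b/d hairpins was lower in replicate 1 at every locus. The difference of the log2 ratios, replicate 1 minus replicate 2, was -0.41 on chromosome 8 (95% conditional interval -0.45 to -0.38), -0.40 on chromosome 2 (-0.57 to -0.24) and -0.63 on chromosome 1 (-1.44 to 0.15, which includes 0). Summed over the loci, the a/c hairpins had 82447 and 77518 counts in replicates 1 and 2, and the b/d hairpins 30983 and 20999. This grouping was chosen after the values were seen, and with 2 libraries it is a description only. It names the hairpins by their 5p arm but counts reads of either arm that could be placed at 1 locus. The 5p reads of the Mir181a and Mir181b hairpins fit 2 loci, so it does not show a difference in the 5p microRNAs.

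**Figure D5:**
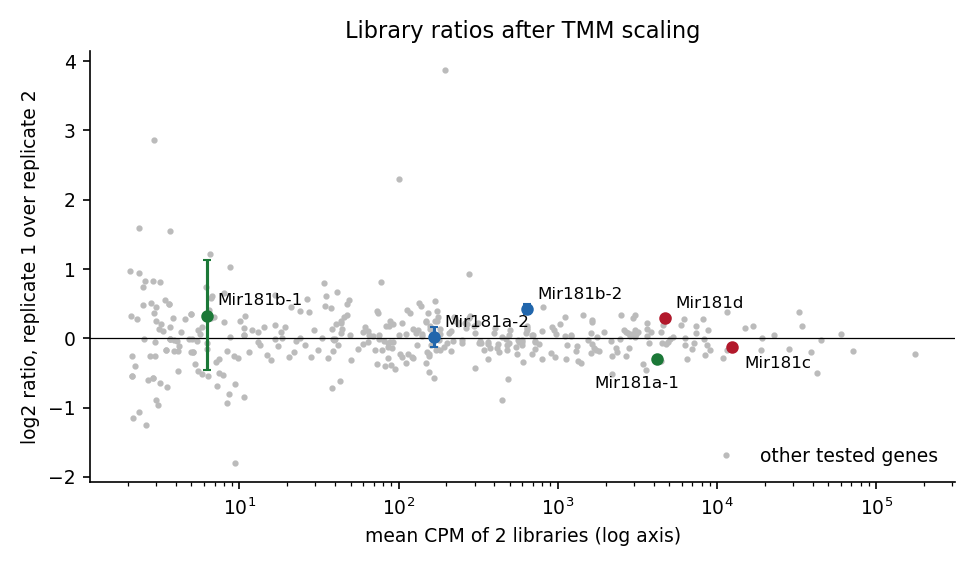
Log2 ratio of replicate 1 over replicate 2 after TMM scaling against mean CPM (log axis) for 401 tested genes, with the miR-181 hairpins coloured by locus and their exact 95% intervals. Mir181b-2, Mir181d and Mir181b-1 lie above 0 at 0.42, 0.29 and 0.33, and Mir181a-1 and Mir181c lie below it at -0.30 and -0.13.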

How the data were processed

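The authors deposited raw read counts per gene for each library, made on mm10 with GENCODE M4, per the text deposited with each sample. The aligner and counting program were not given in the sources used here. A table holds counts for both strands together and for each of them, below 4 summary lines that were left out of library totals. Replicate 1 had 15.5% unmapped and 34.5% multimapping reads, with 2.60% outside listed genes on either strand, and replicate 2 had 15.2%, 35.1% and 2.78%. The strand column with the larger total gave the sense counts, and CPM is per 1000000 of them. Of 1973 identifiers, 1894 matched GENCODE M21, whose coordinates and host genes are used. RefSeq sequences matched all 6 members for mature arms and 5 for hairpins, and Mir181c had no hairpin entry.

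Counting intervals are 95% exact binomial intervals. A count of 0 allows up to 3 counts. With 1 group no contrast could be fitted, so ratios within a library were judged by 2 SD and the libraries were compared by an exact binomial test. The text names the 6 members, the 2 genes nearest each in level, the 2 most and least unequal copy pairs and the 2 leading genes of each marker list. The members and lists were chosen with earlier results of these data known. Alternatives were unstranded counts, counts per base, a pseudocount of 0.5, other totals, plain and DESeq2 scaling, minimum summed counts of 1 and 100, the exact test of edgeR at an assumed and an estimated BCV, and each replicate alone. The tools were edgeR 4.0.16 and DESeq2 1.42.0 in R 4.3.3, and scipy 1.17.1, pandas 2.3.3, numpy 2.4.6 and matplotlib 3.10.9 in Python 3.11.15.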

Additional observations from a re-analysis of the deposited data

How the results depend on the processing

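The 12 ratios between members or loci kept their direction and their side of the limit of 2 SD with counts per base of hairpin and with 0.5 added to each count. The mean moved by at most 0.31 on the log2 scale. Among the 12, Mir181b-2 over Mir181a-2 is the inverse of Mir181a-2 over Mir181b-2, so they are not all separate ratios. Unstranded counts give the same ratios by construction, since no member had a count on the opposite strand. The copy ratios and the other neighbour ratios of the order, and the per-member library ratios, were added to the alternatives after the data were seen. The family share moved from its value of 2.22% to 2.16% with unstranded counts and total, to 2.69% without the most abundant gene in the total and to 1.26% with multimapping reads in the total. It was 2.21% without replicate 1 and 2.23% without replicate 2. Plain totals, DESeq2 size factors, unstranded counts and minimum summed counts of 1 and 100 each called 4 members, 2 in each direction, as TMM did. At a minimum of 100, 5 members were tested, since Mir181b-1 was below it. Over all genes TMM gave 98 higher and 88 lower in replicate 1, and plain totals 131 and 62, with a median shift of 0.07 in place of 0.00. edgeR's exact test called 0 members at an assumed BCV of 0.1, with 1 at an unadjusted p under 0.05 (Mir181b-2). It called 0 members at an estimated BCV of 16.3%, with 0 at an unadjusted p under 0.05. That BCV was estimated from the same 2 libraries taken as 1 group, so its 0 calls are not a check. No paired analysis was possible because there is 1 group. Depth limits Mir181b-1, with 36 and 24 counts, and multimapping limits all 4 Mir181a and Mir181b hairpins.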
